A study of Mus musculus with 2 samples.

Results

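The 33 genes described here encode integrins and the focal adhesion proteins that tie them to the actin cytoskeleton. They were listed by name: 15 integrin chains (9 alpha and 6 beta), dystroglycan, and 17 cytoplasmic adaptors, kinases and actin linkers. Of these, 31 were measured by at least 1 probe set annotated to a single gene symbol, out of 18194 genes measured in all. Fermt1 and Ptk2 had no such probe set and are not analysed here. The RNA came from the proximal section of the intestine, its upper 1/3, of chow-fed C57BL/6 mice. The control group was wild type (WT), and the other group carried a germline deletion of Cd36 in every tissue (CD36KO), whose product is a membrane receptor of fatty acids and of thrombospondin. Age and sex are not given in the labels used here. RNA of 3 animals was pooled per genotype and each pool was read on 1 Affymetrix array, so n = 1 per group, no test was possible, and no difference below can be set against variation between animals or arrays. The title of the series names disruption of the extracellular matrix, and integrins are the receptors through which cells hold that matrix.

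Integrins are paired receptors made of an alpha and a beta chain. The alpha chain largely sets the ligand, while the short tail of the beta chain binds talin and kindlin, which switch the receptor to its active state and link it to actin. Around bound integrins a plaque assembles that holds the ILK, PINCH and parvin complex, the kinases FAK and Src with their scaffolds paxillin and p130Cas, and the actin-binding proteins vinculin, alpha-actinin, filamin, zyxin and tensin. In the gut, epithelial cells hold the basement membrane through laminin-binding integrins and dystroglycan, and smooth muscle and fibroblasts hold collagen and fibronectin.

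Values are the authors' deposited log2 values, and differences are CD36KO minus WT on that scale. A gene was represented by its probe set with the highest mean of both arrays and counted where the higher of its values reached 4.51, which is the middle of such values over the whole table. The medians of both arrays were 4.38. Cd36 itself was lower in CD36KO at its 3 probe sets, by 2.33-fold to 3.56-fold. The labels do not say which exons were deleted, so these probe sets may not check the genotype. The labelled tissue carried its markers, as the 10 intestinal epithelial markers listed were all past the filter. Both pools are labelled as the same section of gut, but genes that mark position along it differed between them, as did RNA coverage. In CD36KO, 9 of 10 distal segment genes were higher by 1.5-fold or more, and 7 of 10 proximal segment genes were lower by as much. Among the distal genes past the filter on both arrays, Fabp6 read 6.25 in WT and 12.92 in CD36KO (102-fold). Tmigd1 read 6.85 and 10.42 (11.8-fold). No member described below differed by as much. Of the distal genes, Fgf15 and Slc10a2 were past the filter described above through CD36KO alone. For the beta-actin control the 3' minus 5' signal was 2.28 (WT) and 1.34 (CD36KO). For GAPDH it was 1.28 (WT) and 0.71 (CD36KO). The part of gut position and RNA coverage in the differences below was not tested.

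Of the 31 measured members 29 were past the filter, and the same number was past it when both arrays had to reach it. Among them, 4 were higher in CD36KO by 1.5-fold or more and 0 were lower by as much. These 4 were Itga9, Itgb1, Fermt2 and Itgb6. They make up 13.8% of the members past the filter, beside 5.31% of the 11981 genes past it, and 3.31% of those genes were at least 1.5-fold lower. At 2-fold, Itga9 and Itgb1 remained, 6.90% of the members beside 1.61% of all genes, while 0 members and 0.626% of all genes were lower by 2-fold or more. The median difference of the members was 0.19, beside -0.0059 for all genes. Of the 29 members 19 read higher in CD36KO, or 65.5%, beside 48.8% of all genes. The remaining 25 members lay between -0.33 and 0.58. The count of 4 fell to 0 of 25 when all probe sets of a gene were averaged, low ones included. It was 4, with Lims1 in place of Itgb6, when the average was taken over the probe sets past the filter, a choice made after the data were seen; Lims1 entered through a probe set past the filter in CD36KO alone.

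**Figure D1:**
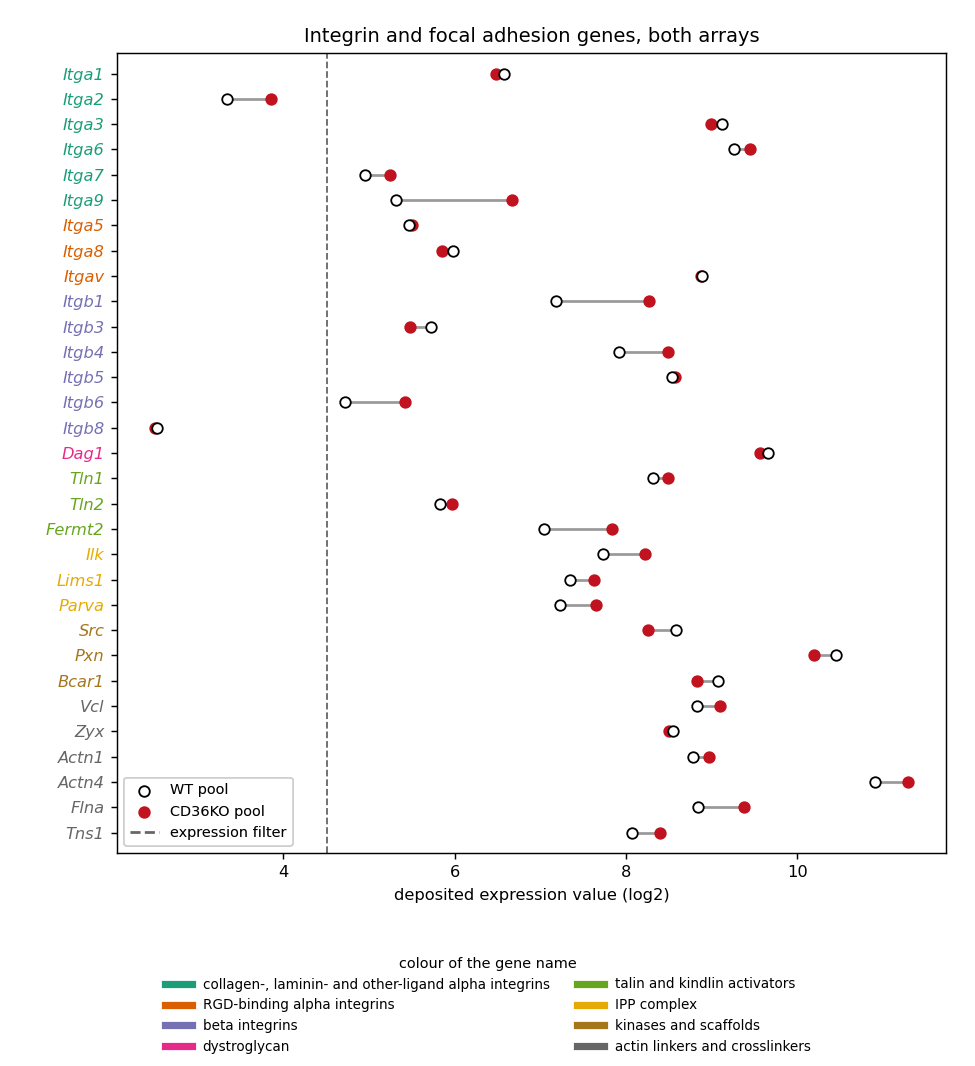
Deposited log2 value of each of the 31 measured members (x axis) in the WT pool (open circles) and the CD36KO pool (filled circles), 1 array each, with gene names coloured by role and the filter of 4.51 as a dashed line. The longest lines, those of Itga9, Itgb1, Fermt2 and Itgb6, run to the right, toward CD36KO, while Src, Pxn and Bcar1 run to the left.

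**Figure D2:**
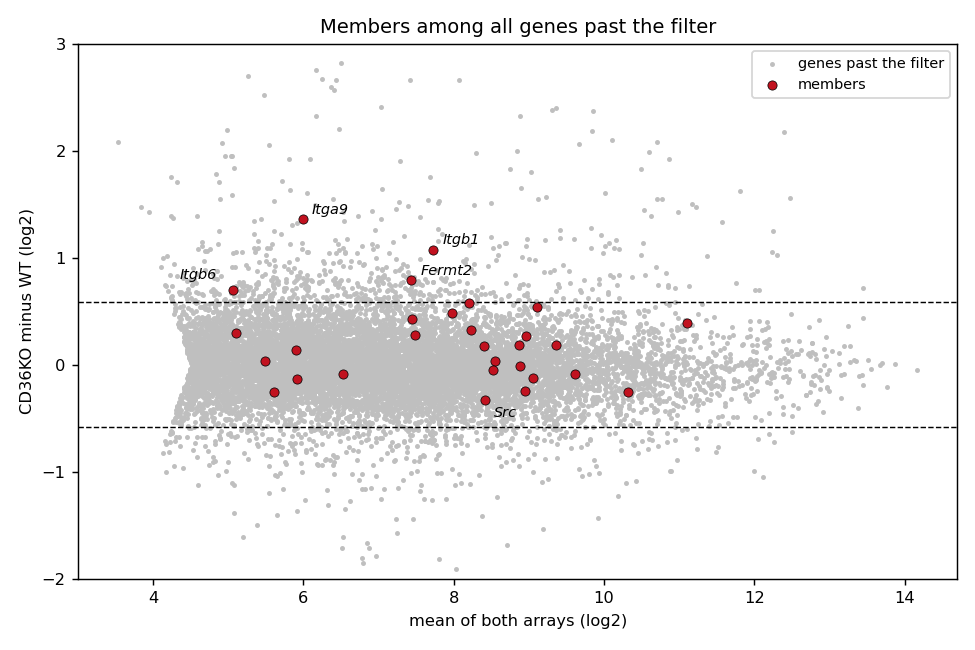
CD36KO minus WT difference (y axis, log2) against the mean of both arrays (x axis, log2) for the 11981 genes past the filter (grey) and the 29 members past it (filled); dashed lines mark 1.5-fold, and 22 genes beyond -2 or 3 are not drawn. Itga9, Itgb1, Fermt2 and Itgb6 lie above the upper line and no member lies below the lower line.

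Among the alpha chains Itga9 stood apart. Its product pairs with the beta1 chain and binds tenascin-C, osteopontin and an alternatively spliced form of fibronectin. Itga9 read 5.31 in WT and 6.67 in CD36KO, 2.57-fold higher. This rests on a single probe set, as the other 2 were below the filter on both arrays, at 3.03 and 3.34 for the first and 2.58 and 2.66 for the second.

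The other 7 alpha chains past the filter differed by at most 0.30 in either direction at the probe set used. Itga6, the chain of the laminin receptors of epithelia, read 9.26 in WT and 9.45 in CD36KO, and a second probe set differed by 0.35. Itga3, which also pairs with beta1 to bind laminin, read 9.12 and 8.99. Of its other probe sets one lay at -0.01, while the dimmest went from 4.40 to 5.30, a difference of 0.90, past the filter through CD36KO alone. The probe sets of Itga3 thus did not share a direction. Itga7, a laminin-binding chain of muscle, read 4.95 and 5.25. Itga1, a collagen-binding chain found on smooth muscle, read 6.57 and 6.48. Itga2, the other collagen-binding chain of the list, was below the filter on both arrays, at 3.35 and 3.86.

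The 3 alpha chains that recognize the RGD motif of fibronectin and related ligands showed little difference. Itga5, the chain of the main fibronectin receptor, read 5.46 in WT and 5.50 in CD36KO. Itga8, a receptor chain for nephronectin and fibronectin on mesenchymal cells, read 5.99 and 5.85. Itgav, the chain shared by several RGD receptors, read 8.89 and 8.88, and its sign changed with the scaling of the arrays. None of the 3 had a further probe set past the filter.

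The beta chains held the clearest difference supported by several probe sets. Itgb1 encodes the beta1 chain, the partner of most alpha chains in the list. It read 7.19 in WT and 8.27 in CD36KO, 2.11-fold higher. The second probe set past the filter read 6.44 and 7.58, and the third read 4.08 and 4.98. The first 2 were past the filter on both arrays and were higher in CD36KO by 1.08 and 1.14. The third differed by 0.89 but was past the filter through CD36KO alone, so its direction is no further support. The 3 further probe sets of Itgb1 were below the filter on both arrays and differed by 0.00, 0.13 and -0.48.

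Itgb6 encodes the beta chain of an epithelial receptor that activates latent TGF-beta. It read 4.72 in WT and 5.42 in CD36KO, 1.63-fold higher, close to the filter on both arrays. Its second probe set read 4.33 and 4.52, a difference of 0.19. Itgb4, the laminin receptor chain of hemidesmosomes, read 7.92 and 8.49 at its only probe set. This difference of 0.58 (1.49-fold) was the nearest below the threshold, and it passed 1.5-fold once the trend of the difference with level was removed.

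Itgb5 and Itgb3, the beta chains of the vitronectin receptors, differed less. Itgb5 read 8.54 in WT and 8.57 in CD36KO, and its 4 probe sets, all past the filter, lay between 0.03 and 0.28. Itgb3 read 5.73 and 5.48, the lowest difference of the integrins past the filter at -0.25. Itgb8, whose product also activates latent TGF-beta, was below the filter at 2.53 and 2.50.

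Set by receptor pair, the chains differed by unequal amounts. Itga9 and Itgb1 both passed 1.5-fold, while the other alpha partners of Itgb1 with a value past the filter (Itga1, Itga3, Itga5, Itga6, Itga7, Itga8 and Itgav) differed by between -0.13 and 0.30. Itgb6 was higher while its partner Itgav differed by -0.01, and Itgb4 differed by 0.58 while its partner Itga6 differed by 0.19. Over the 13 integrin chains past the filter the median was 0.04 and 3 passed 1.5-fold. Dag1, the laminin receptor dystroglycan, read 9.65 in WT and 9.57 in CD36KO, but its other 3 probe sets, all past the filter, differed by 0.21 to 0.42.

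**Figure D3:**
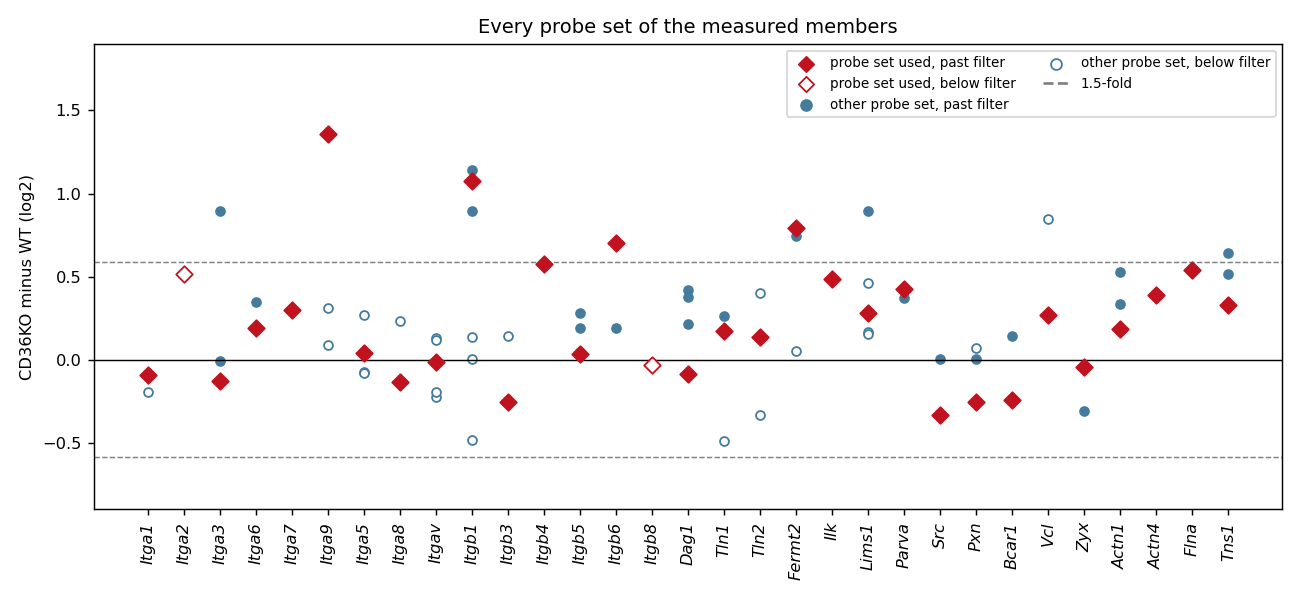
CD36KO minus WT difference (y axis, log2) of all 79 probe sets of the 31 measured members; diamonds are the probe set used for the gene, circles the others, filled symbols those past the filter and dashed lines 1.5-fold. The 3 filled symbols of Itgb1, 1 of them past the filter through CD36KO alone, lie above the line, whereas those of Itga3, Src, Pxn, Bcar1 and Dag1 lie on both sides of 0.

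Over all probe sets of the members, 53 of 79 were past the filter. Among these 53, 10 were higher in CD36KO by 1.5-fold or more and 0 lower, beside 6.86% and 3.46% of the 19482 probe sets of a single symbol past the filter. Of the 10, however, 3 were past the filter through CD36KO alone, where they were high: the third of Itgb1 and those of Itga3 and Lims1. With both arrays required, 7 of 49 probe sets were higher and 0 lower by 1.5-fold or more, beside 5.95% and 3.05% of 18192 probe sets. These 7 belonged to 5 genes, the 4 already named and Tns1. Of the 16 members with several probe sets past the filter, 10 were higher in CD36KO at each, 1 (Zyx) was lower at each, and 5 had both signs, counts that include probe sets past the filter through 1 array alone. The same counts were not made over all genes, so they are not read as a result about the members. Probe sets of 1 gene share its transcripts and are not replicates.

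Of the proteins that activate integrins, kindlin-2 differed more than the talins. Fermt2, which encodes kindlin-2, the kindlin of mesenchymal and muscle cells, read 7.04 in WT and 7.83 in CD36KO, 1.73-fold higher. A second probe set past the filter read 4.65 and 5.40, a difference of 0.75, and the third was below the filter and differed by 0.05. Tln1, the widely expressed talin, read 8.32 and 8.49, with 0.26 at its other probe set past the filter. Tln2, the second talin, read 5.83 and 5.97. The dim probe sets of the talins differed in both directions, by -0.49 for Tln1 and by 0.40 and -0.34 for Tln2.

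The upstream sequence of Fermt2 holds a CArG box, the element bound by serum response factor (SRF), which drives many actin and adhesion genes. RefSeq promoter windows (GRCm38.p6) were found for 25 of the 33 members, 32 windows in all, and the 250 bases before each start site were searched on both strands, a search chosen after the values were seen. A CArG box was present in 3 windows, of Fermt2, Itgb6 and Vcl, beside 1.47% of all 32851 windows and 1.39% of the 21263 windows of protein-coding genes. The box, in capitals, is shown with 10 bases on each side, 5′ to 3′ on the strand of the gene. That of Fermt2 lies at chr14:45530250-45530279 (minus strand), 194 bases before the start site used. That of Itgb6 lies at chr2:60673724-60673753 (minus strand), before the second of its 2 listed start sites, and that of Vcl at chr14:20929161-20929190 (plus strand).
Fermt2: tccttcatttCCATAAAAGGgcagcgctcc
Itgb6: cacctgacttCCTTATAAGGtgaatgagga
Vcl: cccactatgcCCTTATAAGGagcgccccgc

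Fermt2 and Itgb6 were past 1.5-fold in CD36KO and Vcl was not. A match of letters is not evidence of binding, and the windows of Itgb1 and Itga9 held none. The window of Itgb1 is shown because that gene was past 2-fold at 2 probe sets that were past the filter on both arrays. It lies at chr8:128685404-128685653 on the plus strand, and capitals mark its match to GGGCGG, the core of the box bound by SP1-type factors. This motif was found in the windows of 17 of the 25 members, in 20 of 32 windows, beside 32.7% of all windows and 42.6% of those of protein-coding genes.
Itgb1: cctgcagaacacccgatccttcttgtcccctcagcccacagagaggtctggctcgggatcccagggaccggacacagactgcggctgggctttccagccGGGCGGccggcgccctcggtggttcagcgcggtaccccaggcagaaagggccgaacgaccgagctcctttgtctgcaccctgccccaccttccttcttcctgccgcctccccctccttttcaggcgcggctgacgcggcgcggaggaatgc

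The complex of integrin-linked kinase, PINCH and parvin, which sits on the beta tails beside kindlin, read higher in CD36KO in all 3 of its members, below 1.5-fold. Ilk, the scaffold pseudokinase, read 7.73 in WT and 8.22 in CD36KO. Parva, which binds actin, read 7.23 and 7.65, with its second probe set at 0.37. Lims1, which encodes PINCH-1, read 7.34 and 7.63 at the probe set used. Its other probe set past the filter went from 4.26 to 5.15, a difference of 0.89, and Lims1 passed 1.5-fold where probe sets that may cross-hybridize were set aside. That probe set was below the filter in WT and past it through CD36KO alone. The median of the 3 genes was 0.43.

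The measured signalling genes of the plaque lay on the other side of 0 at the probe set used only. Src, the tyrosine kinase that acts with FAK, read 8.58 in WT and 8.25 in CD36KO, the lowest difference of all members past the filter at -0.33. Pxn, which encodes the scaffold paxillin, read 10.45 and 10.20. Bcar1, which encodes p130Cas, the scaffold that couples Src to Rac, read 9.08 and 8.83. None reached 1.5-fold, and each had a second probe set past the filter that differed by 0.00 for Src, 0.01 for Pxn and 0.14 for Bcar1. The probe set used carries in each of these genes the suffix of sets whose probes can match several transcripts, while the second does not.

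Of the 6 genes that link the plaque to actin or crosslink it, 5 read higher in CD36KO and none passed 1.5-fold. Flna, which encodes the crosslinker filamin A, read 8.85 in WT and 9.38 in CD36KO, a difference of 0.54 at its only probe set. Actn4, a non-muscle alpha-actinin, read 10.91 and 11.29. Tns1, a tensin that binds beta tails and actin, read 8.06 and 8.40, and its other probe sets differed by 0.51 and 0.64. Actn1, the related alpha-actinin, read 8.78 and 8.96, with 0.34 and 0.52 at the others. Vcl, which encodes vinculin, read 8.83 and 9.10, and its second probe set, below the filter, differed by 0.85. Zyx, which encodes zyxin, a protein recruited to adhesions under tension, read 8.54 and 8.50, with its second probe set at -0.31. The median of these 6 genes was 0.30.

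Adhesion genes outside the list gave a similar picture. Of 128 further genes of the pathway, 118 were measured and 106 were past the filter. In CD36KO 14 of the 106 (13.2%) were higher by 1.5-fold or more and 1 was lower by as much, with a median of 0.19. This share is close to the 13.8% of the members, and both lists stand beside 5.31% of all genes. By group it was 35.3% of ligands, 28.6% of leukocyte and other integrins and 13.3% of membrane partners and hemidesmosome genes. It was 10% of other adaptors and actin linkers, 4.17% of signalling genes and 0% of the SRF and YAP list. The member list and this joined list were both chosen with earlier results of these data known, so neither is independent support for the other.

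The ligands had the highest median of the pathway groups. Of 17 integrin ligand genes that passed the filter, 6 were higher and 0 lower by 1.5-fold or more in CD36KO, with a median of 0.32. Lama3, a laminin chain of epithelial basement membranes, was at 7.16 in WT and 8.43 in CD36KO. Fn1, fibronectin, was at 7.90 and 9.10. Postn, periostin, was at 6.93 and 7.84, and Tnc, tenascin-C, at 6.94 and 7.71. Tenascin-C and an alternatively spliced form of fibronectin are ligands of the integrin formed by Itga9 and Itgb1. Whether the Fn1 probe set detects that form is not known here, and Spp1, which encodes osteopontin, had no value. A link between these ligands and the receptor genes was not tested.

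Integrins of leukocytes and platelets had a median of 0.24 over 7 genes past the filter. Both chains of LFA-1, the lymphocyte and myeloid receptor for ICAM-1, passed 1.5-fold. Itgal read 5.70 in WT and 6.43 in CD36KO, with 0.32 at another probe set, and Itgb2 read 6.43 and 7.10. Itga4 differed by 0.44 and Itgb7, its gut-homing partner, by 0.24. The leukocyte marker list, of which 8 of 10 genes were past the filter, had a median of 0.23, with Cd68 and Lyz2 past 1.5-fold and the pan-leukocyte gene Ptprc at 0.29. Cd68, at 3.46 in WT and 5.18 in CD36KO, was past the filter through CD36KO alone, so its direction is no further support. Of the 8 genes 6 read higher in CD36KO, while Cd8a and Cd3e differed by -0.16 and -0.12.

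Other adaptors and actin linkers had a median of 0.18 with 3 of 30 at least 1.5-fold higher. These were Csrp1, a LIM protein of smooth muscle, at 8.51 in WT and 9.50 in CD36KO, Pdlim1 at 10.35 and 11.10, and Sorbs3, which encodes vinexin, at 5.13 and 5.78. Rsu1, a binding partner of PINCH, differed by 0.57. Signalling genes had a median of 0.10 over 24 genes. Rac1, the GTPase that drives lamellipodia, was 1.68-fold higher, with 0.46, below 1.5-fold, at another probe set. Yes1, a kinase related to Src, was 1.53-fold lower, with -0.07 at another probe set. Membrane partners and hemidesmosome genes had a median of 0.05 over 15 genes. Cd9, a tetraspanin that associates with beta1 integrins, was 2.88-fold higher, from 7.04 to 8.56, and Sgce, a sarcoglycan, was 1.56-fold higher. A list that joins regulators of the SRF and YAP pathways (such as Srf, Yap1 and Wwtr1) with genes they induce had a median of 0.19, and 0 of 13 passed 1.5-fold. Tpm1 was nearest at 0.56, with other probe sets from -0.06 to 1.30, and Srf itself differed by 0.19.

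**Figure D4:**
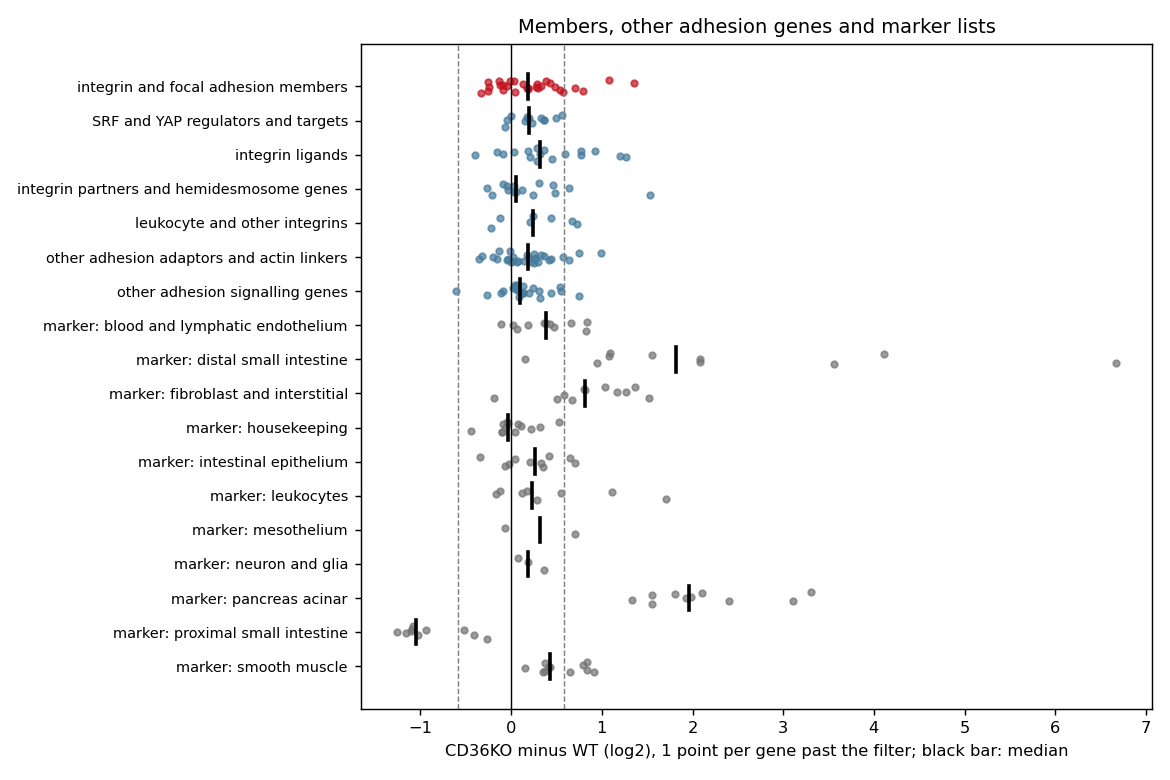
CD36KO minus WT difference (x axis, log2) of each gene past the filter in the member list, in 6 lists of other adhesion genes and in 11 marker lists, with the median as a black bar and 1.5-fold as dashed lines. The members have a median of 0.19, the fibroblast and interstitial markers 0.81, the smooth muscle markers 0.43 and the housekeeping genes -0.03.

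Markers of the cell types that carry many of these receptors differed too, and in pooled whole tissue more cells of a type and more RNA per cell cannot be told apart. Of 11 fibroblast and interstitial markers 8 were at least 1.5-fold higher. The list had a median of 0.81, and its summed linear level went from 3437 in WT to 6756 in CD36KO, a ratio of 1.97. Among the 8, a second probe set past the filter differed by 0.06 for Col1a1, -0.01 for Kit, -0.11 for Ano1 and 1.26 for Col3a1. Of 11 smooth muscle markers past the filter 5 were at least 1.5-fold higher, with a median of 0.43 and a summed level of 11805 in WT and 16588 in CD36KO. One of the 5, Myh11, had another probe set at 0.14. Of 11 endothelial markers past the filter 3 were at least 1.5-fold higher, with a median of 0.39 and a summed level of 614 and 757. Of these 3, Emcn and Pecam1, at 4.48 and 3.90 in WT, were past the filter through CD36KO alone, so their direction is no further support. The third, Lyve1, had another probe set at 0.13. The epithelial markers had 2 of 10 past 1.5-fold, a median of 0.27 and a summed level of 36541 and 42219. The 3 neuron and glia markers past the filter had a median of 0.18, and of 5 mesothelial markers 2 were past the filter. Upk3b was 1.63-fold higher but past the filter through CD36KO alone, at 4.11 in WT and 4.81 in CD36KO. Upk1b read 7.06 in WT and 6.99 in CD36KO, with up to 0.30 at other probe sets. On this log2 scale no marker reads 0; the lowest values were 5.52 among the fibroblast, 3.96 among the smooth muscle, 2.60 among the endothelial and 7.48 among the epithelial markers. The summed level of the 31 members that were measured lay at 1.14 times WT for the 15 integrins and 1.11 times for the 16 other genes. The pancreas acinar markers, from an organ next to the proximal gut, were all past 1.5-fold in the 10 of 14 genes measured (median 1.96, summed level 7194 in WT and 26079.5 in CD36KO), and the medians of the distal and proximal segment genes were 1.82 and -1.05. Of the pancreas genes, Prss3 was past the filter through CD36KO alone. Pnliprp2, past it on both arrays, read 8.79 in WT and 11.89 in CD36KO (8.61-fold). The part of cell type, gut position and pancreas tissue in the differences of the members was not tested. The housekeeping genes had a median of -0.03 and 0 of 13 passed 1.5-fold at the probe set used. Other probe sets past the filter did so for 2 of them, Actb, with differences from -0.96 to 0.98 that include its 5' control probe set, and Ywhaz, from -0.56 to 0.93. Single probe sets of housekeeping genes thus differed by more than Fermt2 and Itgb6 did.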

How the data were processed

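The authors deposited 1 table of 45101 probe sets with a log2 expression value for each of 2 arrays, read as log2 from its range. Per the labels' protocols, RNA was extracted with TRIzol from 3 animals per genotype, pooled, and 100 ng of total RNA was labelled with biotin for Affymetrix arrays. The summarization and normalization methods are unstated in the sources used here. Without detection calls, a dim probe set may hold no signal.

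Names came from the platform annotation. A single symbol was carried by 34958, several by 932, and 9211 were unnamed here. The symbols of all 31 measured members matched the RefSeq table (GRCm38.p6) through their gene identifiers. Each gene took the probe set with the highest mean, which was kept where the higher value reached 4.51. The difference CD36KO minus WT was computed on the values as given. No test was run, since each genotype has 1 array, and precision is limited by the number of arrays. All members are named. From each other list, genes were drawn from up to 4 past the filter with the largest absolute difference, and not all of these are named. Some marker genes were named to give a limit of their probe sets or of the filter. Srf, Yap1, Ptprc, Actb, Ywhaz and the genes behind counts are named beyond that rule after their values were seen. Members and lists were chosen with earlier results of these data known. Summed linear levels add 2 to the power of each value over the measured genes of a list, the dim ones included.

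The alternatives were median centring, quantile scaling, subtraction of a lowess curve (fraction 0.3), an average of probe sets per gene, the least different probe set, probe sets without the suffixes for shared probes first, filters at the 75th percentile, on both arrays or absent, and a 2-fold threshold. The mean and the smallest difference over the probe sets past the filter were added after the data were seen. The code was run on simulated data, made from the WT values with known 2-fold shifts and small random noise. That run checks the code only and says nothing about the reliability of the differences between the real arrays. Software was NumPy 2.4.6 and pandas 2.3.3 under Python 3.11.15, with statsmodels 0.14.6 for lowess and matplotlib 3.10.9 for plots.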

Additional observations from a re-analysis of the deposited data

How the results depend on the processing

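No paired analysis was possible because each genotype has 1 array, and leaving out a replicate was not possible for the same reason. The count of members at least 1.5-fold lower in CD36KO was 0 under every alternative run. The count of members at least 1.5-fold higher, 4 as reported, was 0 with the mean over all probe sets and 0 with the probe set of smallest absolute difference per gene; both let in probe sets below the filter. It was 2 at a 2-fold threshold, and between 3 and 5 under the others. Restricted to probe sets past the filter, the smallest difference per gene left 3, Itga9, Itgb1 and Fermt2. The median difference of the members was 0.30 with the mean over all probe sets and between 0.16 and 0.27 under the others. Values were taken as moved where they shifted by 0.1 or more on the log2 scale: of 186 values of single members under 6 alternatives 34 moved, and no member at least 1.5-fold higher changed sign. Under the scalings Itgav and Itgb8 changed sign, both with differences near 0. Under the other choices of probe set 8 members changed sign: Bcar1 (-0.24 to 0.14), Itgb3 (-0.25 to 0.14), Itga3 (-0.13 to 0.25), Dag1 (-0.09 to 0.23), Itga8 (-0.13 to 0.05), Src (-0.33 to 0.00), Pxn (-0.26 to 0.01) and Tln1 (0.17 to -0.02), so their direction depends on the probe set. Most differences here are smaller than 1.5-fold and have no replicate error, and the values of Itgb6 and Itga7 lie near the filter, where the table gives no measure of background.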
